A study of Mus musculus with 9 samples.

Results

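The genes described here encode the proteins of the mitochondrial ribosome, the machine that translates the few messages held in mitochondrial DNA. They were taken as every gene symbol made of Mrpl or Mrps, a number and at most 1 of the letters a, b or c, with a summed count of 90 or more over all libraries. Of 76 matching symbols 75 met the minimum, out of 34590 genes in the files. Mrpl53 was listed at 0 in all 9 libraries and is the symbol left outside. Mrpl23 had the lowest summed count inside, 891. The 75 members comprised 46 Mrpl and 29 Mrps symbols, and all 75 passed the filter on low counts.

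Total RNA was sequenced from telencephalons, the embryonic forebrain that gives rise to the cerebral cortex and basal ganglia, dissected from E12.5 mouse embryos. The control group comprised 5 libraries labelled wild type (WT), and the mutant group 4 libraries labelled Lats1/2 dKO, in which Nestin-Cre drives the double knockout. Both groups are described as of mixed background, and whether the controls carried floxed alleles or Cre is not given in the sources used here. Nestin-Cre is used to delete genes in neural progenitors and their progeny, and the dissected tissue also holds vessel, blood and immune cells. Since the labels count 5 control and 4 dKO embryos, 1 library stands for 1 embryo here. A fixed volume of ERCC spike-ins, synthetic RNAs of known amount, was added per counted cell before RNA extraction. A count divided by the spike-in count therefore follows RNA per cell, whereas a count scaled to the other genes follows a gene's place within the transcriptome.

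The mitochondrial ribosome has a large subunit, which joins amino acids, and a small subunit, which reads the message. All of its proteins are encoded in the nucleus, made in the cytosol and imported, whereas its RNAs come from mitochondrial DNA. Many of the proteins descend from those of bacterial ribosomes, and others were acquired in mitochondria. The ribosome makes only membrane subunits of the oxidative phosphorylation complexes, whose other subunits are nuclear-encoded. The kinases Lats1 and Lats2 act in the Hippo pathway and hold back the transcriptional coactivators YAP and TAZ, and the series title asks about transcript output of the whole genome in their absence.

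By structure, 48 members encode large-subunit proteins and 26 small-subunit proteins. Proteins with a counterpart at the same site of bacterial ribosomes were called bacterial-type, and those at a site that bacterial ribosomes lack, mitochondria-specific. Of the large-subunit proteins 30 are bacterial-type and 18 mitochondria-specific, among them Mrps30 and Mrps18a, whose symbols name the other subunit. Of the small-subunit proteins 16 are bacterial-type and 10 mitochondria-specific. Mrps18a and Mrps18b descend from a bacterial protein but were counted as mitochondria-specific by their sites. Mrps36 carries the symbol but is now held to be a subunit of the 2-oxoglutarate dehydrogenase complex, and it was kept apart from both subunits.

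The promoters of 5 members are shown: those of the 2 largest relative rises, of Mrps27, and of the 2 lowest relative values. Mrps27 had the largest rise among members that passed the relative test below and hold a YY1 match in the printed run. Each run is 200 bases, 170 before the RefSeq start and the 30 that begin at it, 5′ to 3′ on the gene's strand, from RefSeq on GRCm38.p6. Capitals mark matches to motif cores of NRF1 (GCGCATG), the ETS family that includes GABP (CCGGAAG) or YY1 (ATGGCGG), searched on both strands.
Mrps18b (chr17:35916411-35916610, minus strand): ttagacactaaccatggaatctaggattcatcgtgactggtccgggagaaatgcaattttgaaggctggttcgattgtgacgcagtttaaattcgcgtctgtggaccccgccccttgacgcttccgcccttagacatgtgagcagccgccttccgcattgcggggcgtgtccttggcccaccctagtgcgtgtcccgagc
Mrpl33 (chr5:31613781-31613980, plus strand): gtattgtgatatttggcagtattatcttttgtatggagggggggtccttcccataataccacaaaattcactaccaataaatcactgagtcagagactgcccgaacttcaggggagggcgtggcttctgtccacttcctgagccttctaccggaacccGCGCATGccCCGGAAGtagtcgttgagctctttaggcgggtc
Mrps27 (chr13:99344616-99344815, plus strand): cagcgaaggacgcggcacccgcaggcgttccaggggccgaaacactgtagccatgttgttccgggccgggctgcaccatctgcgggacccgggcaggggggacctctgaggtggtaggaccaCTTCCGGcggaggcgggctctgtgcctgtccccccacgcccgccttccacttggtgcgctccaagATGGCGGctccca
Mrpl23 (chr7:142532862-142533061, plus strand): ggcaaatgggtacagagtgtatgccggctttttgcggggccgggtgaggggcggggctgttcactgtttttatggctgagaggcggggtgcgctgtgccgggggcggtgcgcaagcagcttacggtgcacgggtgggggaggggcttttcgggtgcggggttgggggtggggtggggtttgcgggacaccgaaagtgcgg
Mrpl41 (chr2:24975069-24975268, minus strand): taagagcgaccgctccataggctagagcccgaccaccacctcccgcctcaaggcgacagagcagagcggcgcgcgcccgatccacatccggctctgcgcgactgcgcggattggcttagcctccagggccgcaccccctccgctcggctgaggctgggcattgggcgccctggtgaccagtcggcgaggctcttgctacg
Mrpl33 has an NRF1 match that begins 12 bases before the start and an ETS match 3 bases before it. Mrps27 has an ETS match 48 bases before the start and a YY1 match 17 bases after it. Mrps18b has matches outside the stretch printed or crossing its end: NRF1 at 222 bases before and 29 after its start, and ETS at 43 bases after it. Mrpl23 and Mrpl41 have no match to any of the 3 cores in the 300-base windows searched.

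The libraries held 12906561 to 45803152 gene counts and 198776 to 706808 spike-in counts, and both groups had shallow and deep libraries. Gene counts per spike-in count were 58.1 ± 6.10 in WT (SD, n = 5) and 79.1 ± 5.90 in dKO (SD, n = 4). This was a 1.36-fold difference without overlap (exact permutation test, two-sided, p = 0.00794, the smallest that 126 assignments allow). Lats1 was at 132 ± 4.55 CPM (counts scaled by TMM to a common library size) in WT and 59.8 ± 1.07 CPM in dKO, and Lats2 at 27.0 ± 6.18 and 43.4 ± 9.46 CPM; counts over whole genes include exons outside a deletion, so the Lats2 value does not check its label. WT 2, 3 and 4 stood apart by reads in no gene, which were 39.3% to 41.3% of their reads and 32% to 35.6% in the other 6 libraries, so results are also given without these 3. The 12 telencephalon markers summed to 1918 to 1973 CPM in WT and 2069 to 2209 CPM in dKO. Relative to all genes 1 of the 12 rose and 5 fell, where 13.7% of all genes tested rose and 12% fell. Of the 12, 2 lay above 0, as did 48.5% of all genes tested. The marker that rose was Nes, at 784 ± 58.5 CPM in WT and 1178 ± 73.6 CPM in dKO. Without Nes the other 11 summed to 1080.2 to 1245 CPM in WT and 911 to 996 CPM in dKO, a sum added after the values were seen. Red cell markers summed to 2462 to 6633 CPM in WT and 1961 to 3569 CPM in dKO. These sums overlapped between groups, as did those of endothelial, microglial, pericyte and diencephalic markers. Of the 7 red cell markers 0 lay above 0 relative to all genes, and 1 fell. Their median relative log2 fold change was -0.40 with all libraries and -0.94 without WT 2, 3 and 4. With all libraries the median was 0.25 for microglia and macrophage markers and -0.09 for endothelial markers. It was -0.20 for pericyte and mesenchyme markers and 0.06 for diencephalon and eye markers. In these lists 0 genes rose or fell. The microglia and macrophage median was also 0.25 without WT 2, 3 and 4, with 4 of 5 above 0. No listed marker was at 0 in every library. In dissected tissue, fewer cells of a type and less RNA per cell cannot be told apart, and the part of cell makeup or of reads in no gene in the results below was not tested.

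Per spike-in count, nearly every mitochondrial ribosomal protein gene rose in the dKO. Of 75 members 74 rose and 0 fell (edgeR quasi-likelihood test, adjusted p under 0.05). DESeq2 and limma-voom gave the same 2 counts, and 0 members were lower at an unadjusted p under 0.05 (edgeR; 0.873% of all genes tested). Over all 17182 genes tested, 61.1% rose and 0.698% fell with edgeR, and the shares under the other methods are not given here. The members' median log2 fold change per spike-in count was 0.53, or 1.45-fold, against 0.43, or 1.34-fold, over all genes tested. The members lay close to one another. The SD of their log2 fold changes was 0.10, against 0.39 over all genes tested, and the lowest and highest were 0.30 and 0.82. This closeness was not particular to the members. The SD was 0.07 over nuclear oxidative phosphorylation genes and 0.08 over cytosolic ribosomal protein genes.

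Summed over the 75 members, WT libraries 1 to 5 gave 127, 115, 146, 139 and 144 counts per 1000 spike-in counts. The dKO libraries 1 to 4 gave 176, 205, 188 and 205. Every dKO library lay above every WT library, with a ratio of group means of 1.45. The groups of libraries did not overlap for 73 single members, where 48.4% of all genes tested were higher without overlap. The exceptions were Mrpl23 and Mrps34. Leaving out WT 2, 3 and 4, 69 members rose and 0 fell, with a background of 48.2% higher and 0.257% lower, and the median was 0.50. The members that then did not pass were Mrpl14, Mrpl23, Mrps6, Mrps21, Mrps34 and Mrps36, named after their values were seen.

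**Figure D1:**
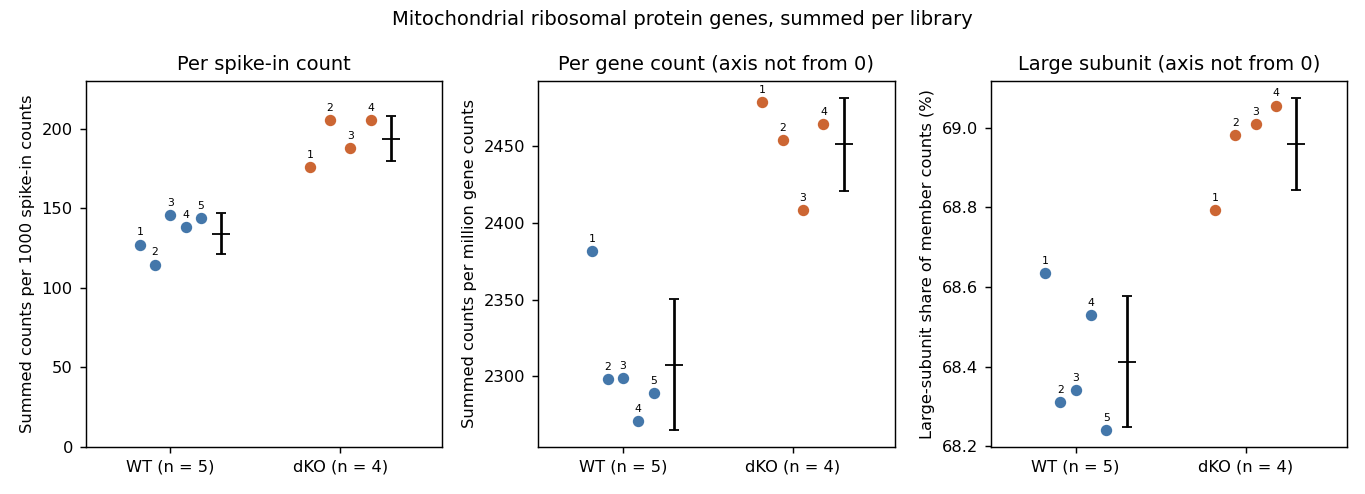
Summed counts of the 75 members in each library per 1000 spike-in counts (left), as CPM before TMM scaling (middle) and the share of member counts that come from large-subunit genes (right); points are libraries with replicate numbers, bars are mean ± SD, and the middle and right axes do not start at 0. The 4 dKO libraries lie above all 5 WT libraries in each panel, by a ratio of means of 1.45 on the left and 1.06 in the middle.

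Relative to all genes the members moved much less, and those that passed the test moved upward. Here counts were scaled by TMM, which sets the typical gene of each library equal. In this fit 15 of 75 members (20.0%) rose and 0 fell, whereas 13.7% of all genes tested rose and 12% fell. At an unadjusted p under 0.05, 22 were higher and 0 lower, with 19.4% and 18.6% of all genes tested. DESeq2 gave 14 and limma-voom 16 that rose, and both gave 0 that fell. The shares of all genes under these methods are not given here. The median relative log2 fold change was 0.10 over the members and -0.01 over all genes tested, and 62 members lay above 0, where 48.5% of all genes tested did. The other 13 lay between -0.13 and 0.

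As a share of all gene counts (CPM before TMM scaling), the members summed to 2381 in WT 1 and 2298, 2299, 2271 and 2289 in WT 2 to 5. In dKO 1 to 4 the sums were 2478, 2453, 2408 and 2464. The groups did not overlap, although WT 1 lay closer to the lowest dKO library than to the other WT libraries, and the ratio of means was 1.06. Without WT 2, 3 and 4 no member passed the relative test: 0 rose and 0 fell (edgeR), with a background of 2.33% higher and 0.972% lower. At an unadjusted p under 0.05, 10 members were higher and 0 lower in that fit, with 10.4% and 9.29% of the genes tested, and the smallest adjusted p was 0.0816. The median was 0.07, and all 15 members that passed with all libraries still lay above 0.

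**Figure D2:**
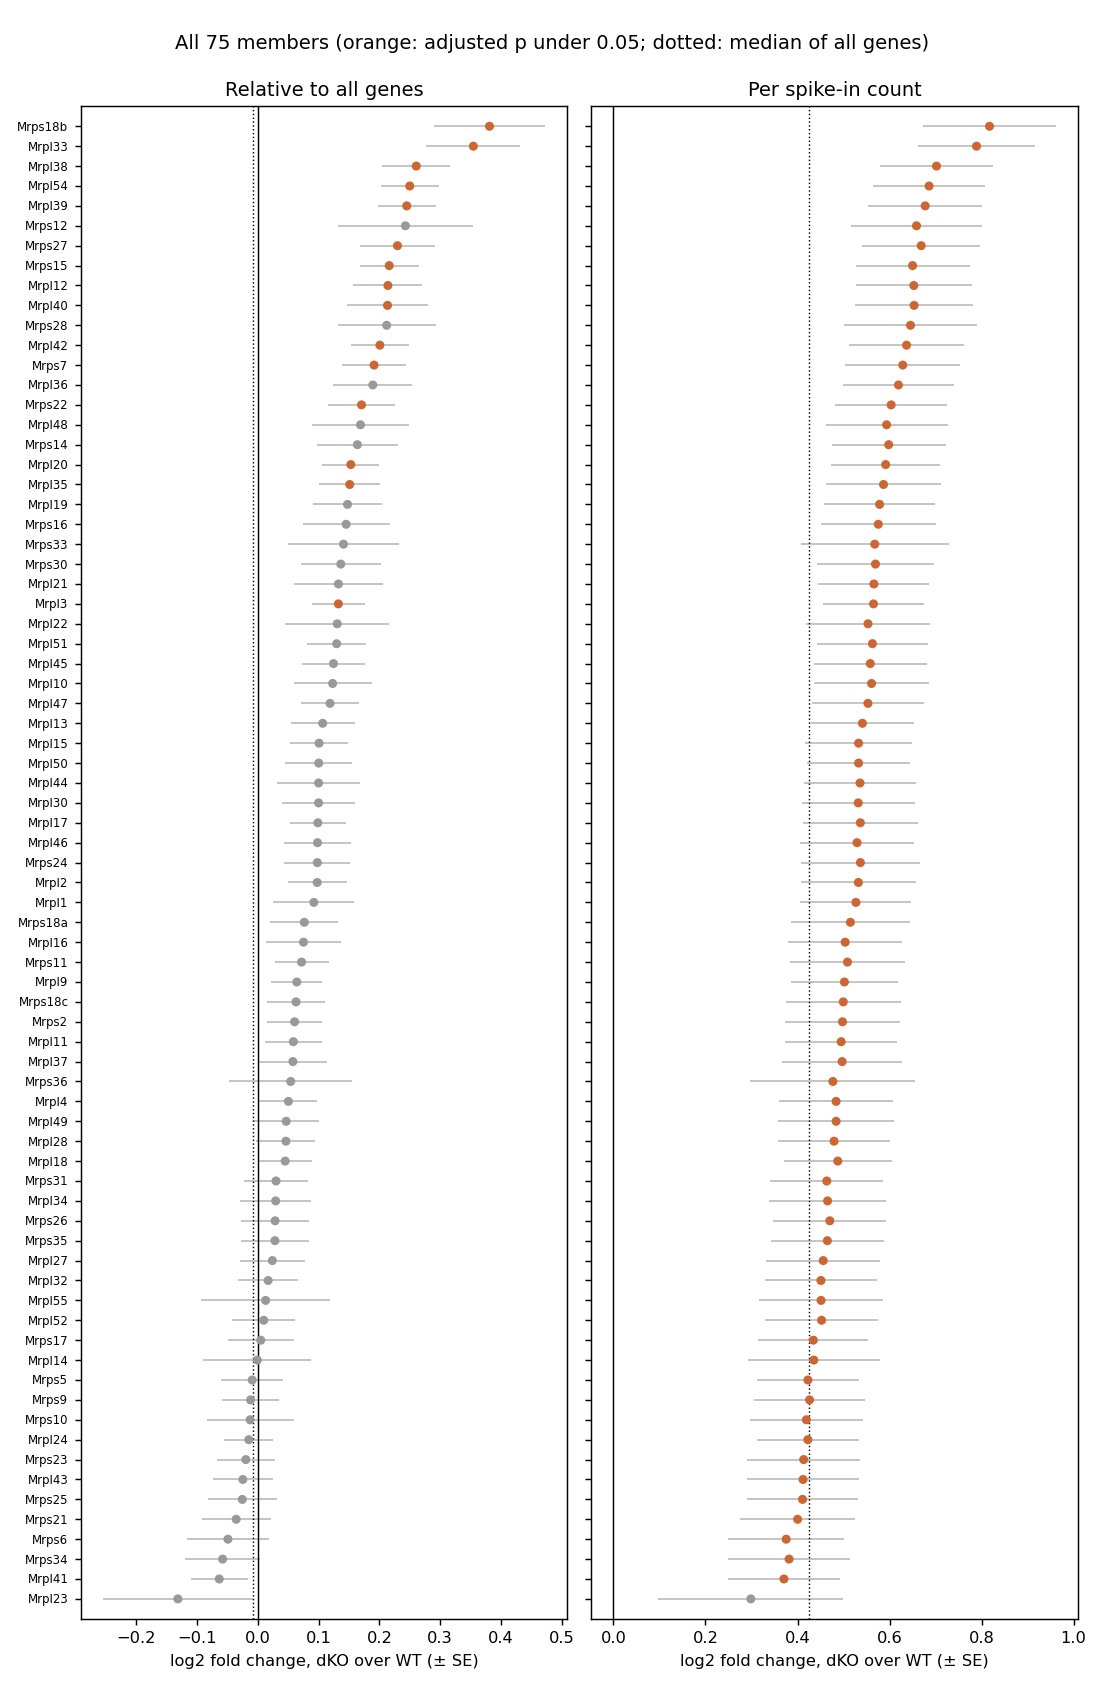
The log2 fold change of dKO over WT of each of the 75 members with its standard error, relative to all genes (left) and per spike-in count (right); orange points passed an adjusted p under 0.05 and the dotted line is the median over all genes tested. On the right 74 points are orange and all 75 lie above 0, while on the left 15 are orange and 13 lie below 0.

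Among the large-subunit proteins 10 of 48 rose relative to all genes and 0 fell, with a median of 0.10; of all genes tested 13.7% rose and 12% fell. Per spike-in count 47 of 48 rose, with a median of 0.53, where 61.1% of all genes tested rose. Of the 30 bacterial-type proteins 5 rose in the relative fit, a share near that of all genes, and of the 18 mitochondria-specific ones 5. Their medians were 0.10 and 0.11, and the difference was not tested.

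Mrpl33, a small bacterial-type protein of the large subunit, had the largest relative rise of this subunit. It was at 37.5, 35.6, 38.4, 35.7 and 32.7 CPM in WT 1 to 5 and at 47.9, 41.4, 42.1 and 52.6 CPM in dKO 1 to 4. All dKO libraries were above all WT libraries, and dKO 4 was the highest. In the relative fit it rose by 0.35 on the log2 scale (SE 0.08, adjusted p = 0.00674, edgeR). Per spike-in count the rise was 0.79 (SE 0.13), or 1.73-fold. An unnamed transcript model, Gm43809, overlaps its exons on the same strand, so its counts are uncertain. Without WT 2, 3 and 4 the relative value was 0.38 (adjusted p = 0.0928).

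Mrpl12 forms the flexible stalk of the large subunit that engages translation factors, and has been reported to bind mitochondrial RNA polymerase. It was at 34.6, 39.6, 37.2, 38.7 and 40.1 CPM in WT and 43.2, 43.5, 42.9 and 47.3 CPM in dKO. The groups did not overlap, with WT 1 low and dKO 4 high. The relative log2 fold change was 0.21 (SE 0.06, adjusted p = 0.0172, edgeR), and per spike-in count 0.65. The antisense model Gm16755 overlaps its exons. The strand setting of the counting is not given, so the count may include reads of that model.

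The mitochondria-specific large-subunit proteins that rose in the relative fit were Mrpl38, Mrpl54, Mrpl39, Mrpl40 and Mrpl42. Mrpl38, which resembles phosphatidylethanolamine-binding proteins, was at 29.2, 28.6, 26.4, 27.3 and 27.6 CPM in WT and 32.3, 32.4, 32.2 and 36.5 CPM in dKO. Its lowest dKO library lay above the highest WT library, and its relative log2 fold change was 0.26 (SE 0.06, adjusted p = 0.00614, edgeR). Mrpl54 was at 20.6, 21.1, 20.2, 19.4 and 21.2 CPM in WT and 24.4, 23.7, 24.5 and 24.9 CPM in dKO. Both groups were tight and did not overlap, and the relative change was 0.25 (SE 0.05, adjusted p = 0.00336, edgeR), the smallest adjusted p of the 75 members in this fit. Mrpl39, a relative of threonyl-tRNA synthetases, was at 39.0, 36.0, 36.6, 38.0 and 40.3 CPM in WT and 45.6, 44.4, 45.2 and 44.9 CPM in dKO. The dKO libraries were nearly level and all above WT, with a relative change of 0.24 (SE 0.05, adjusted p = 0.00386, edgeR).

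Mrpl42 ranged from 27.5 to 31.0 CPM in WT and from 33.5 to 34.0 CPM in dKO, a relative change of 0.20 (SE 0.05, adjusted p = 0.0107, edgeR). Mrpl40, which in humans lies in the region lost in DiGeorge syndrome, was at 26.5, 23.7, 24.2, 23.1 and 24.4 CPM in WT and 27.3, 29.2, 25.4 and 31.2 CPM in dKO. Here dKO 3 lay below WT 1, so the groups overlapped although the relative change of 0.21 passed the test (SE 0.07, adjusted p = 0.0348, edgeR). Mrpl20, Mrpl35 and Mrpl3, named after their values were seen, made up the rest of the 10, with relative changes of 0.15, 0.15 and 0.13. All 3 are bacterial-type proteins of the large subunit.

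**Figure D3:**
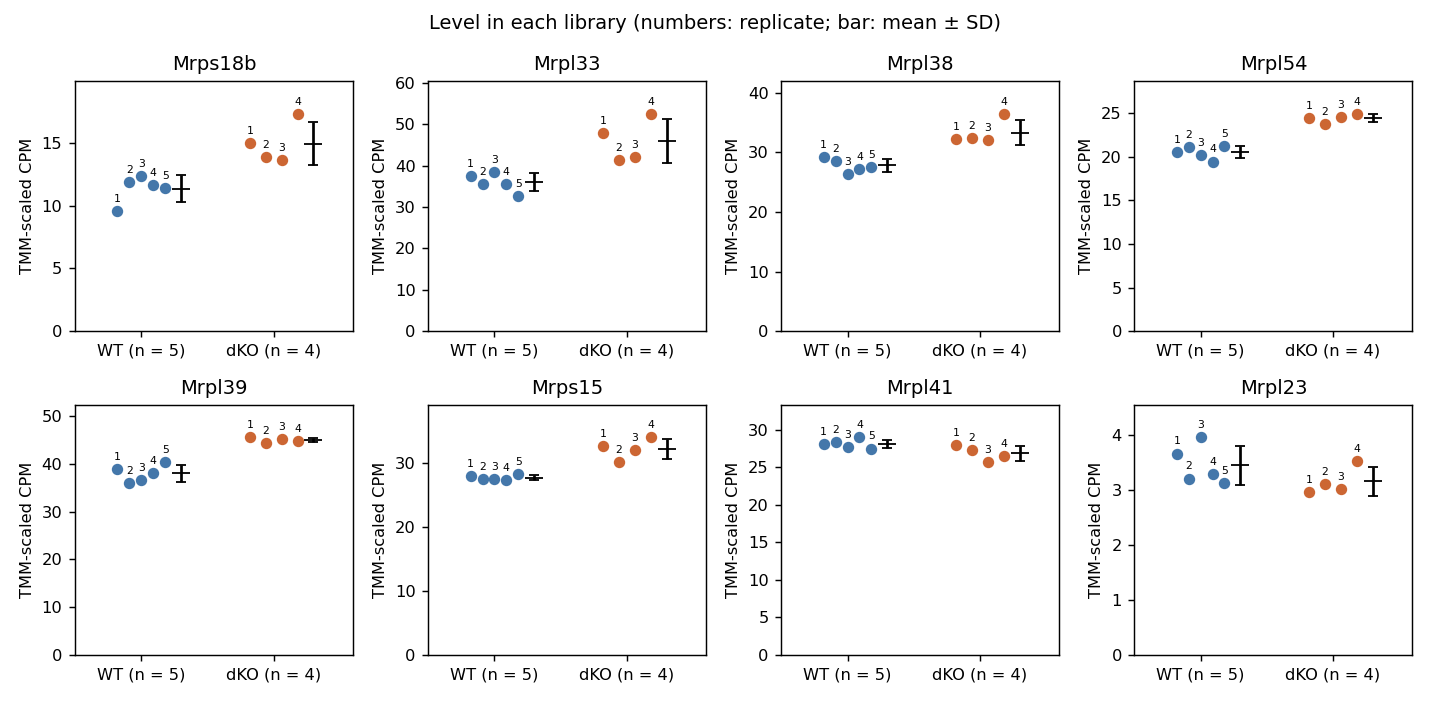
TMM-scaled CPM of 8 members in each library, with replicate numbers and mean ± SD beside the points; each axis starts at 0. In Mrps18b, Mrpl33, Mrpl38, Mrpl54, Mrpl39 and Mrps15 every dKO library lies above every WT library, whereas in Mrpl41 and Mrpl23 the groups overlap.

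Among the small-subunit proteins 5 of 26 rose relative to all genes and 0 fell, with a median of 0.06; again 13.7% of all genes tested rose and 12% fell. Per spike-in count all 26 rose, with a median of 0.50, where 61.1% of all genes tested rose. Of the 16 bacterial-type proteins 2 rose in the relative fit, Mrps15 and Mrps7, a share near that of all genes. Of the 10 mitochondria-specific proteins 3 rose, Mrps18b, Mrps27 and Mrps22.

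Mrps18b had the largest change of all 75 members on both scales. It was at 9.56, 11.9, 12.4, 11.6 and 11.4 CPM in WT 1 to 5 and at 15, 13.9, 13.6 and 17.3 CPM in dKO 1 to 4. The groups did not overlap, with WT 1 the lowest library and dKO 4 the highest. Its relative log2 fold change was 0.38 (SE 0.09, adjusted p = 0.0111, edgeR). Per spike-in count it rose by 0.82 (SE 0.14, adjusted p = 2.2e-05, edgeR), or 1.76-fold, from 0.517, 0.591, 0.787, 0.711 and 0.710 counts per 1000 spike-in counts in WT to 1.05, 1.17, 1.07 and 1.43 in dKO. Without WT 2, 3 and 4 the relative value was 0.48 (adjusted p = 0.0816). The antisense model Gm16279 overlaps its exons.

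Mrps18b is 1 of 3 mammalian descendants of a single bacterial protein, S18, that sit at different places in the ribosome. Mrps18c takes the bacterial site in the small subunit, and Mrps18a sits in the large subunit. Mrps18a was at 30.9 ± 1.16 CPM in WT and 32.7 ± 2.07 CPM in dKO, and its relative value was 0.08 (SE 0.06, adjusted p = 0.349, edgeR). Mrps18c was at 23.1 ± 0.55 CPM in WT and 24.1 ± 1.00 CPM in dKO, and its value was 0.06 (SE 0.05, adjusted p = 0.374, edgeR). Neither passed the relative test, both overlapped between groups, and the difference between paralogs was not tested. Per spike-in count both rose, by 0.51 and 0.50.

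Mrps27 is a pentatricopeptide repeat protein, a class that binds RNA in organelles. It was at 26.4, 24.9, 24.9, 23.2 and 26.7 CPM in WT and 28.5, 32.3, 27.8 and 29.7 CPM in dKO. The groups did not overlap, and dKO 2 was the highest. The relative change was 0.23 (SE 0.06, adjusted p = 0.0187, edgeR), and an antisense model, 6430562O15Rik, overlaps its exons. Mrps15, whose bacterial counterpart helps to fold the small-subunit RNA, was at 27.9, 27.5, 27.6, 27.3 and 28.3 CPM in WT and 32.7, 30.2, 32 and 34.0 CPM in dKO. The WT libraries lay close together and below every dKO library, a relative change of 0.22 (SE 0.05, adjusted p = 0.00785, edgeR).

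Mrps7, a bacterial-type protein of the small-subunit head, ranged from 33.7 to 37.9 CPM in WT and from 39.3 to 43.0 CPM in dKO, a relative rise of 0.19 (adjusted p = 0.0194, edgeR). Its exons overlap those of Gga3 and Mif4gd on the other strand. Mrps22 ranged from 32.1 to 35.9 CPM in WT and from 36.5 to 41.1 CPM in dKO, a relative rise of 0.17 (adjusted p = 0.0389, edgeR). Neither gene overlapped between the groups.

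Of the 15 relative rises, 8 passed in each of the 9 fits that left out a single library: Mrpl12, Mrpl33, Mrpl38, Mrpl39, Mrpl42, Mrpl54, Mrps15 and Mrps18b. Mrps27 and Mrps7 passed in 7 of the 9. Mrpl3 and Mrpl40 passed in 3, and Mrpl20, Mrpl35 and Mrps22 in 2. Without WT 4 only 9 of the 15 passed, and the share of all genes in that fit is not given here. In 18 members the groups did not overlap on the relative scale, all with dKO higher, where 12.6% of all genes tested were higher and 9.74% lower without overlap. Of these 18 members 14 were among the 15 that passed the test.

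The smallest changes per spike-in count were those of Mrpl23, Mrpl41, Mrps6, Mrps34 and Mrps21. Mrpl23, which in bacteria lines the exit of the peptide tunnel, was at 0.199, 0.160, 0.253, 0.201 and 0.195 counts per 1000 spike-in counts in WT and 0.208, 0.262, 0.238 and 0.292 in dKO. WT 3 lay above dKO 1 and dKO 3. It was the member that did not pass per spike-in count, at 0.30 on the log2 scale (SE 0.20, adjusted p = 0.194, edgeR). It was also the least counted member, with 48 to 134 counts a library. A processed copy listed as Mrpl23-ps1 held 3358 counts against 891 for the gene, so reads may be split between them or lost as multiply aligned.

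Mrpl41, a mitochondria-specific large-subunit protein, was at 1.52, 1.41, 1.76, 1.77 and 1.72 counts per 1000 spike-in counts in WT and 1.96, 2.30, 2.02 and 2.19 in dKO. All dKO libraries were above all WT libraries, and the gene rose by 0.37 (SE 0.12, adjusted p = 0.00955, edgeR). Its relative value was -0.06 (SE 0.05, adjusted p = 0.355, edgeR), with overlapping groups. Mrps34, a mitochondria-specific small-subunit protein, was at 0.940, 0.864, 1.18, 1.04 and 1.11 in WT and 1.10, 1.53, 1.27 and 1.48 in dKO. Its dKO 1 library lay below WT 3 and WT 5, yet the rise of 0.38 passed the test per spike-in count (SE 0.13, adjusted p = 0.0129, edgeR). Mrps6 and Mrps21, both bacterial-type small-subunit proteins, rose by 0.38 and 0.40 per spike-in count, but their relative values of -0.05 and -0.04 missed the threshold. Mrps6 shares exons on its strand with Slc5a3, so its counts are uncertain.

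Mrps30, a large-subunit protein once studied as a pro-apoptotic factor, was at 31.3 ± 2.49 CPM in WT and 34.3 ± 1.81 CPM in dKO. It rose by 0.57 per spike-in count (SE 0.13), and its relative value of 0.14 did not pass (adjusted p = 0.154, edgeR). Mrps36 was among the least abundant, at 4.47 ± 0.26 CPM in WT and 4.61 ± 0.33 CPM in dKO. It rose by 0.48 per spike-in count (SE 0.18, adjusted p = 0.0212, edgeR) and had a relative value of 0.05 (SE 0.10). Its copies Mrps36-ps1 and Mrps36-ps2 held 778 and 145 counts against 1243 for the gene.

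Although the ribosome holds 1 copy of most of these proteins, their transcripts differed widely in level. Per kilobase of exon, WT means spanned a 23.3-fold range, with a median of 18.2 CPM per kb and quartiles of 11 and 26.4. Mrpl33 was highest at 75.2 CPM per kb, followed by Mrpl52 at 53.1 and Mrpl28 at 50.6. Mrpl48 was lowest at 3.22, then Mrpl23 at 3.58 and Mrps33 at 4.06. Mrpl52 and Mrpl28 differed by less than their spread over libraries, since Mrpl28 alone varied from 50.4 to 57.1 CPM before division by length. A copy listed as Mrpl48-ps held 2135 counts against 4368 for Mrpl48.

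The order of levels was nearly the same in both genotypes. Over the 75 members Spearman's rho of WT and dKO means per kb was 0.992, a description over genes that share libraries and lengths. In dKO, Mrpl33 reached 96.2 CPM per kb, Mrpl52 53.5 and Mrpl28 52.2. The exon lengths joined the exons of all annotated transcripts of a gene, in another annotation than the one the authors counted with. Both shift a gene's level but not its fold change, and how far they widen the range of levels was not tested.

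**Figure D4:**
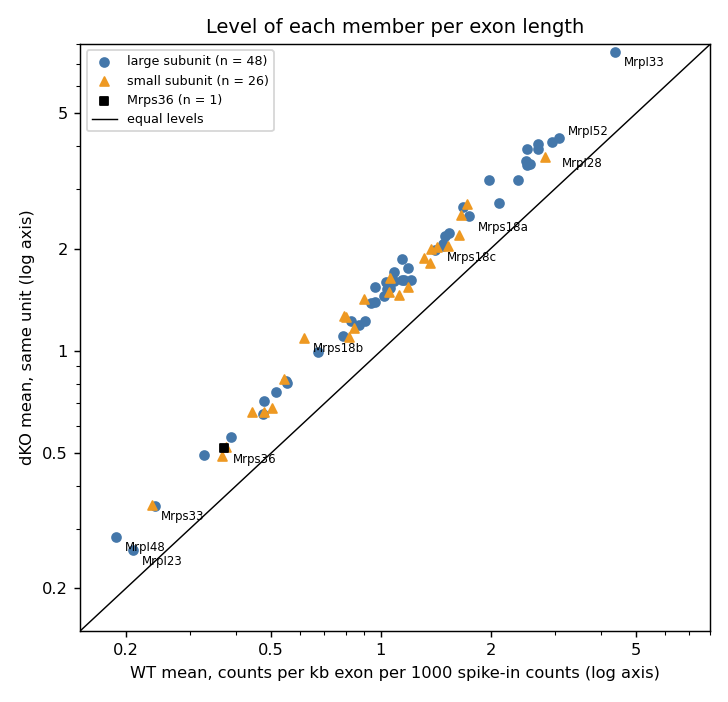
Mean level of each member per kilobase of exon and per 1000 spike-in counts in WT (horizontal) and dKO (vertical), on log axes; each point is a gene, shaped by subunit, and the line marks equal levels. All 75 points lie above the line at a similar distance, and Mrpl33 stands at the top of both axes.

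The balance between subunits shifted by little. Large-subunit genes held 68.6%, 68.3%, 68.3%, 68.5% and 68.2% of member counts in WT 1 to 5 and 68.8%, 69.0%, 69.0% and 69.1% in dKO 1 to 4. The groups did not overlap, but the means differed by less than 1 percentage point. Per 1000 spike-in counts, large-subunit genes summed to 91.7 ± 8.86 in WT and 134 ± 10 in dKO, a ratio of 1.46. Small-subunit genes summed to 42.1 ± 4.14 and 59.8 ± 4.24, a ratio of 1.42. These sums are descriptions without a test.

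Some subunits of the same ribosome carry other symbols, and 6 of them were listed: Dap3, Ict1, Gadd45gip1, Chchd1, Aurkaip1 and Ptcd3. All 6 rose per spike-in count, with a median of 0.47, where 61.1% of all genes tested rose. In the relative fit 13.7% of all genes tested rose and 12% fell, and of the 6 listed 1 rose and 0 fell. That gene was Ict1, a peptidyl-tRNA hydrolase built into the large subunit, at 38.6 ± 2.53 CPM in WT and 43.8 ± 1.00 CPM in dKO (0.18, SE 0.06, adjusted p = 0.0312, edgeR). Dap3, the GTP-binding protein of the small subunit, was at 67.6 ± 4.00 and 64.0 ± 1.01 CPM, and its relative value of -0.08 did not pass. Relative values of the other 4 ranged from -0.02 (Gadd45gip1) to 0.09 (Ptcd3), and none passed.

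Genes that assemble the ribosome or act with it in translation passed in both directions relative to all genes, as did all genes tested. Of 32 tested, 31 rose per spike-in count, with a median of 0.44, where 61.1% of all genes tested rose. Relative to all genes 6 rose and 2 fell, and the median was 0.00. Of all genes tested 13.7% rose and 12% fell in that fit. C1qbp, a matrix protein needed for mitochondrial translation, rose from 53.5 ± 2.51 to 65.8 ± 4.32 CPM (0.30, SE 0.05, adjusted p = 0.00245, edgeR). Mrm1, which methylates the large ribosomal RNA, rose from 7.76 ± 0.62 to 9.51 ± 0.51 CPM (0.30, SE 0.09). Gtpbp10, a GTPase of large-subunit assembly, rose from 31.5 ± 0.50 to 37.2 ± 4.51 CPM (0.24, SE 0.07).

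The 2 genes that fell relative to all genes, named after their values were seen, were Mettl17 and Dhx30. Mettl17, a small-subunit assembly factor, was at 40.1 ± 2.20 CPM in WT and 35.7 ± 0.98 CPM in dKO (-0.16, SE 0.05, adjusted p = 0.0432, edgeR). Dhx30, an RNA helicase of mitochondrial granules, was at 212 ± 2.75 and 193 ± 5.31 CPM (-0.14, SE 0.03, adjusted p = 0.00912, edgeR). Per spike-in count Dhx30 rose by 0.30, and Mettl17 was the gene of the 32 that did not pass (0.27, adjusted p = 0.0587, edgeR). Of the 4 tested genes for mitochondrial DNA transcription and RNA stability all 4 rose per spike-in count, where 61.1% of all genes tested rose. In the relative fit 0 of the 4 rose or fell, with 13.7% and 12% of all genes tested. At an unadjusted p under 0.05, 2 were higher and 0 lower in that fit (edgeR), with 19.4% and 18.6% of all genes tested.

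Transcription factors linked to nuclear genes of mitochondria were taken as 11 genes. Per spike-in count 8 rose, where 61.1% of all genes tested rose. The relative fit had 2 that rose and 1 that fell, with 13.7% and 12% of all genes tested. Mycn, the Myc family member of neural progenitors, rose from 74.6 ± 3.59 to 91.5 ± 15.15 CPM (0.29, SE 0.09, adjusted p = 0.0340, edgeR). Gabpa, the DNA-binding subunit of GABP, rose from 110 ± 3.03 to 126 ± 8.34 CPM (0.20, SE 0.05, adjusted p = 0.00928, edgeR). Esrra, an orphan nuclear receptor of energy metabolism, fell from 21.2 ± 0.88 to 17.8 ± 0.32 CPM (-0.25, SE 0.05, adjusted p = 0.00468, edgeR). Nrf1, Yy1, Gabpb1 and Gabpb2, whose factors bear on the motifs searched, had relative values of -0.06, 0.06, -0.05 and 0.09. None of them passed, and they were named after their values were seen. Without WT 2, 3 and 4 none of the genes of these 4 lists passed the relative test, where 2.33% of all genes tested rose and 0.972% fell.

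Nuclear genes for oxidative phosphorylation subunits and for cytosolic ribosomal proteins were set beside the members as the most alike groups. Of 74 oxidative phosphorylation genes 73 rose per spike-in count, with a median of 0.48, and relative to all genes 6 rose and 0 fell, with a median of 0.04. Of 78 cytosolic ribosomal protein genes 77 rose per spike-in count, with a median of 0.58. In the relative fit 35 rose and 0 fell, with a median of 0.14. Of all genes tested 61.1% rose per spike-in count, and 13.7% rose and 12% fell in the relative fit. The members lay between the oxidative phosphorylation and cytosolic ribosomal protein genes, with medians of 0.53 and 0.10. Without WT 2, 3 and 4 no gene of either group passed the relative test, where 2.33% of all genes tested rose and 0.972% fell. The medians of that fit were 0.04 for oxidative phosphorylation, 0.07 for the members and 0.12 for cytosolic ribosomal proteins. The differences between the groups were not tested.

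**Figure D5:**
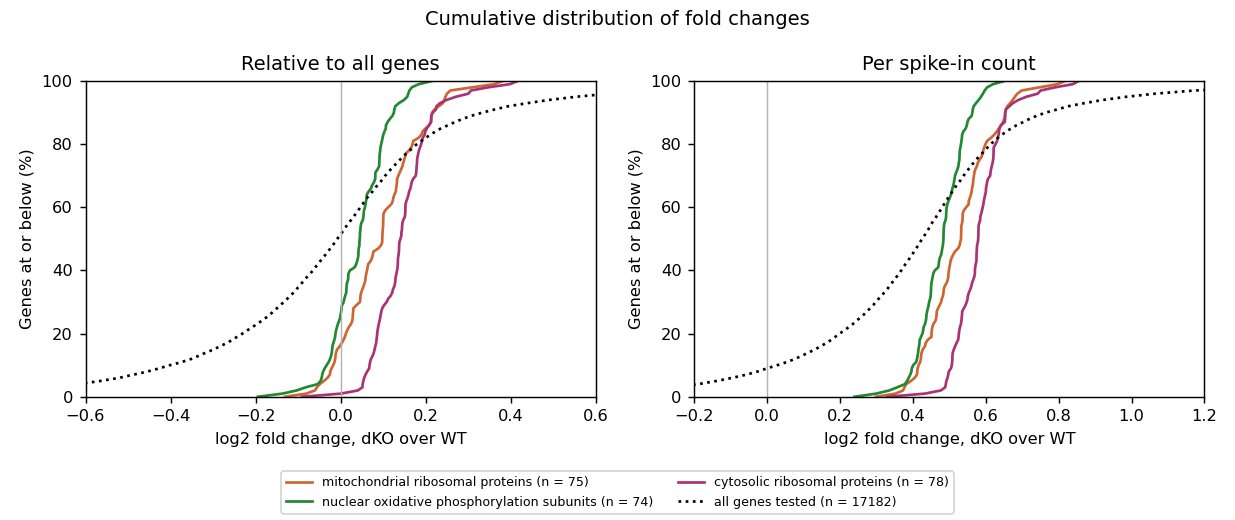
Cumulative share of genes (vertical, percent) at or below a log2 fold change of dKO over WT (horizontal), relative to all genes (left) and per spike-in count (right), for the 75 members, 2 other gene groups and all genes tested; the horizontal axes leave out the outermost part of the curve of all genes. The 3 groups rise far more steeply than all genes, and the members' curve lies between those of oxidative phosphorylation and cytosolic ribosomal protein genes over most of its range.

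The members lie scattered over the genome, and their changes were looked at beside their promoters and neighbours. RefSeq windows of 250 bases before and 50 from the start were found for 66 of the 75 members, on 16 chromosomes. The NRF1 core GCGCATG occurred in 8 of the 66 (12.1%), in 7.46% of tested genes with a window and in 4.41% of all genes with one. The ETS core CCGGAAG occurred in 23 (34.8%), against 17.6% and 9.93%. The YY1 core ATGGCGG occurred in 12 (18.2%), against 8.25% and 4.69%. At least 1 of these 3 cores was present in 34 windows (51.5%), against 29.1% of tested genes and 16.8% of all genes. The short cores were searched after longer forms had been tried, whose shares are not given here. In the promoters printed above, the Mrpl33 run holds an NRF1 match beside an ETS match. The Mrps27 run holds an ETS and a YY1 match, but it was printed because it rose and holds the YY1 motif, so its matches are no result.

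The motif of TEAD factors, through which YAP and TAZ bind DNA, was searched as GGAATG. It occurred in 8 members (12.1%), against 14.7% of tested genes and 16.6% of all genes. The E-box CACGTG, bound by Myc proteins among others, occurred in 5 (7.58%), against 11.4% and 8.09%. Both strands were searched, CACGTG reads the same on both, and no matches of different motifs shared a base in the members. The gene sets were not matched for level or base composition, and a match describes letters, not binding.

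Changes were also set against the motifs, as a description. The median relative log2 fold change was 0.13 in the 23 members with the ETS motif and 0.08 in those without it, for NRF1 it was 0.13 with and 0.08 without, and for YY1 0.07 with and 0.10 without. Of 13 members with a window that rose in the relative fit 5 held the ETS motif, as did 18 of the 53 others. For NRF1 the counts were 3 of 13 and 5 of 53, and for YY1 2 of 13 and 10 of 53. With and without the TEAD motif the medians were 0.10 and 0.07, and 1 of 13 and 7 of 53 held it. With and without the E-box they were 0.10 and 0.09, and 1 of 13 and 4 of 53 held it. These differences were not tested.

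Several members share a start region with a gene on the other strand. In the GRCm38 annotation 18 members had a protein-coding neighbour that starts within 1000 bases in the opposite direction and was tested. Of the 18 neighbours 14 rose per spike-in count, where 61.1% of all genes tested rose. Relative to all genes 0 rose and 3 fell, Klc4, Pnpla7 and Eme2, named after their values were seen. Of all genes tested 13.7% rose and 12% fell in that fit. The neighbours' median relative log2 fold change was -0.02, and that of the 18 members beside them 0.10. In 16 of the 18 pairs the member's value was above its neighbour's. Mrps18b lies beside Ppp1r10, whose relative value was 0.01, and Mrpl41 lies beside Pnpla7, at -0.32.

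Most members share no exon with another gene. Of 51 members whose exons overlap those of no other annotated gene, 10 rose in the relative fit, where 13.7% of all genes tested did, and their median was 0.09. A further 4 overlap a gene on the same strand and 20 a gene on the other strand only.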

How the data were processed

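The authors deposited unnormalized whole-number counts for gene symbols, with each library in its own file. The submitters' processing notes name STAR, HTSeq and the mm9 build; versions, annotation and strand setting were not given in the sources used here. Per the labels' protocols, 350 ng of RNA entered a stranded total RNA kit, read as 100 bp pairs. Each file listed 34590 genes and 92 spike-ins; the counter's own rows (32.0% to 41.3% of reads in no gene) entered neither library sizes nor tests. Multiply aligned reads, 15.7% to 18.3%, were not in the deposited gene counts, so genes with copies may be undercounted.

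Counts were tested in R 4.3.3 with edgeR 4.0.16 (quasi-likelihood, 17182 genes kept by filterByExpr, Benjamini-Hochberg adjustment over all of them), with the total spike-in count as library size or with TMM over genes. Prior degrees of freedom were 28.5 and 4.37, against 7 residual ones. Standard errors are the log2 fold change over the root of F. Per-spike-in p-values share the 9 spike-in totals. The counts of 12906561 to 45803152 a library gave members 48 counts or more each. The scripts were tested on simulated data. No 2 libraries of a group agreed within sampling noise.

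Members and gene lists were chosen with earlier results of these data known. Named were the members that passed the relative test (at most 12 a direction), the 5 largest and 5 smallest changes per spike-in count, the 3 highest and 3 lowest per kb, Mrps18a, Mrps18b, Mrps18c, Mrps30, Mrps36 and Mrpl12, all 6 subunits under other symbols, and up to 3 genes in each further list. A result that names 1 of the marker genes is not reported here. Exon lengths, overlaps and neighbours came from GENCODE M21, promoters from RefSeq (GRCm38.p6), searched for short motif cores after longer forms had been tried; no mm9 coordinates were used. Alternatives were DESeq2 1.42.0, limma-voom 3.58.1, other filters, scalings and spike-in subsets, a replicate block, and leaving out libraries.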

Additional observations from a re-analysis of the deposited data

Results flagged for a closer look

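Over 118 groups of libraries examined for a library far from the rest of its group, 6 held one, and chance gives about 1 in 20. In dKO 4, Mrpl33 stood at 4.33 counts per 1000 spike-in counts, above the 3.31 to 3.49 of the other dKO libraries. Mrpl38 in the same library was at 36.5 CPM, above 32.1 to 32.4 CPM, and Mrpl12 at 47.3 CPM, above 42.9 to 43.5 CPM. Both genes rose in the relative fit also without dKO 4. Mrps36 in dKO 2 was at 0.384 counts per 1000 spike-in counts, above 0.352 to 0.357. In WT 1 the members summed to 2381 CPM before TMM scaling, above 2271 to 2299 in the other WT libraries, and the large-subunit genes to 1635, above 1556 to 1571. Without WT 1, 17 members rose in the relative fit, and the share of all genes in that fit is not given here.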

How the results depend on the processing

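No result reversed. Per spike-in count, 74 members rose under DESeq2, limma-voom, every filter, spike-in subset and scaling tried, 69 without WT 2, 3 and 4, and 72 to 74 when 1 library was left out; 0 fell in each. Relative to all genes, 0 rose without WT 2, 3 and 4, where 2 WT libraries remain. Leaving out 1 library gave 9 to 17, with 9 without WT 4. No filter and upper-quartile scaling gave 11 each. The share of all genes that rose is given here only for the main fits and those without WT 2, 3 and 4. Whether the changes in these counts concern the members more than other genes was not tested, nor was their cause. Medians were 0.48 to 0.57 per spike-in count and 0.08 to 0.10 relative when 1 library was left out.

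Same-numbered WT and dKO libraries correlated at -0.13, -0.13, -0.22 and 0.11 in their deviations from group means. Pairs of unlike number ranged from -0.23 to 0.25. No pairing was used in the main tests, but deviations from means of 5 and 4 libraries cannot exclude a weak one. With the replicate block, which drops WT 5, 9 members rose relative to all genes, against 10 in the same 8 libraries without the block, a fit chosen after seeing the data. The block changed no other call on the counts of members. Shares of all genes with and without the block are not given here.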
